A study of Danio rerio with 6 samples.

Results

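Microglia of adult zebrafish carrying csf1r mutations were compared as a whole with microglia of control fish: 4 of the 6 libraries of the series came from mutants, and all 4 were set against the 2 control libraries. A mutant library was any library whose genotype was csf1ra-/-;b+/-, homozygous for a csf1ra mutation and heterozygous for a csf1rb mutation (compound mutants from here on, 2 libraries), or csf1ra-/- with no csf1rb allele given (2 libraries); the 2 control libraries were wild type. All fish carried the mpeg1-GFP reporter, which labels macrophages under a macrophage promoter, had the mixed TLF x AB background and were given as 9 to 12 months old. The control libraries alone carry the word young in a second label. Brains were dissociated with trypsin, enriched on Percoll and sorted for GFP, and RNA went through a low-input amplification before 50-nucleotide single reads were sequenced. Nothing in the labels ties the libraries of a group to different fish or pools. The p-values therefore measure the spread between samples alone, and that spread may be technical.

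The CSF1 receptor is a tyrosine kinase on macrophages that binds colony stimulating factor 1 and interleukin 34, and signals for survival, growth and maturation. Zebrafish have a pair of receptor genes, csf1ra and csf1rb, so a fish that lacks csf1ra keeps csf1rb, and a compound mutant keeps a single functional csf1rb copy. Microglia, the resident macrophages of the brain, clear dying cells, sense pathogens with Toll-like receptors, release chemokines and degrade what they take up in lysosomes. In mammals their maintenance depends on this receptor.

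The values are the authors' signal, reads divided by an effective library size. Reads over the 21860 genes of the table numbered 15011963 and 13543998 in compound mutants and 8028386 and 7874979 in csf1ra-/-, against 4241988 and 7830510 in control. The effective size was 0.802 to 1.07 times the reads in the mutants and 1.73 and 1.03 times in control, and 18047 to 20971 genes had a read in a mutant library against 21452 and 20723 in control. Macrophage transcripts were at hand in every library: mpeg1.1, the source of the reporter's promoter, had a signal of 1807 and 3757 in compound mutants, 644 and 618 in csf1ra-/- and 745 and 1079.8 in control, and apoeb, an apolipoprotein that marks zebrafish microglia, had 7934 and 6244, 3438 and 2622 and 4128 and 11447 in that order of groups. Rank correlations across genes, which are not independent replicates, were 0.694 to 0.827 between mutant libraries, 0.524 to 0.704 between a mutant and a control library, and 0.667 between the controls. In sorted cells measured in bulk, fewer cells of a type and less RNA per cell cannot be told apart.

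The mutated receptors come first. Transcripts of csf1ra had a signal of 18.5 and 7.73 in compound mutants and 42.6 and 24.3 in csf1ra-/-, against 37.7 and 67.9 in control, and those of csf1rb had 329 and 173 and 1432 and 783 against 901 and 1356. Neither receptor was separated from control in all 4 mutant libraries, because a csf1ra-/- library lay above a control library for each. The mean of both mutant groups minus control was -1.31 ± 0.60 on the log2 scale for csf1ra (SE, n = 2 libraries per group, adjusted p = 0.253, limma) and -1.13 ± 0.47 for csf1rb (adjusted p = 0.219). Of the ligand genes in the table, il34 had 52.8 and 56.4 in compound mutants and 2.46 and 9.25 in csf1ra-/-, against 1.90 and 14.8 in control, and neither it nor csf1b passed. Reads from a mutant allele count toward its gene, so these levels do not check a genotype.

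A change is called held by every mutant library where all 4 mutant values lay on the same side of both control values. In the limma test of all mutants (mean of the 2 mutant groups) against control, on log2 of signal plus 1 with Benjamini-Hochberg adjustment at 0.05, 24 of 21316 genes passed, or 0.113% of those tested. At an unadjusted p under 0.05 there were 1964 genes higher (9.21%) and 2324 lower (10.9%). Past the adjustment were 19 genes higher in the mutants (0.0891%) and 5 lower (0.0235%), and all 24 were held by every mutant library. Taken alone against control in the same fit, csf1ra-/- had adjusted p of 0.0517 to 0.435 for these genes, so none passed (limma). Compound mutants alone had 0.00534 to 0.0402, so all of them passed (limma). Both comparisons share the control libraries. In the authors' deposited table, csf1ra-/- alone had a false discovery rate above 0.05 for BX957297.1 (0.289), nptna (0.138) and hepacam2 (0.0830). It was under 0.05 there for the other genes of the 24. The nearest mutant and control values lay at least 1 log2 unit apart for 18 of the 19 and 4 of the 5. Over all genes tested, 10.9% were above both controls in every mutant library and 13.6% below, by at least 1 log2 unit 2.27% and 3.43%. The 24 were picked by a difference wide for its spread, so their separation largely follows from passing and is no further support. All 24 also passed edgeR's quasi-likelihood test and DESeq2 on the recovered reads, and had a false discovery rate under 0.05 in the authors' deposited table, where 773 genes were higher in the mutants (3.54%) and 2006 lower (9.18%). These are tools applied to the same libraries, not repeats of the experiment.

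**Figure D1:**
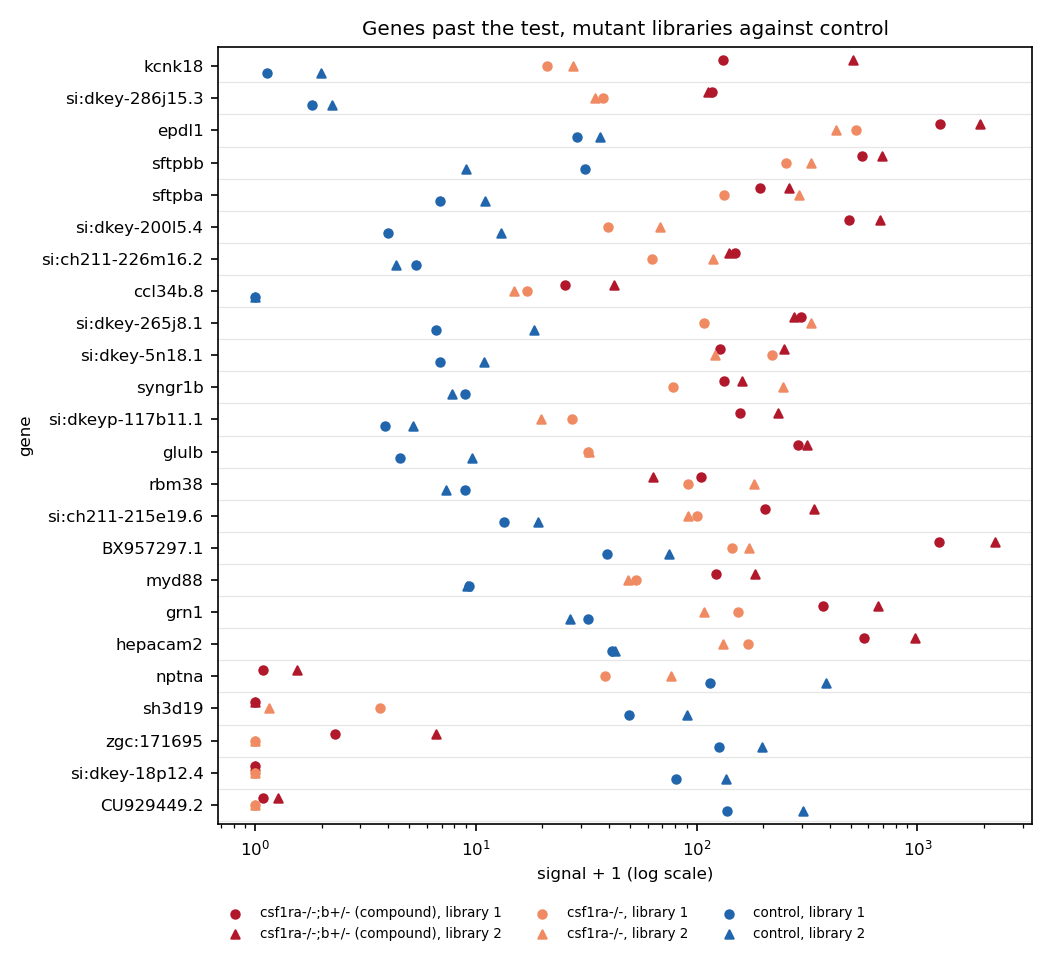
Signal plus 1 (log axis) of the 24 genes that passed the test, for each of the 2 libraries (circle, library 1; triangle, library 2) of csf1ra-/-;b+/-, csf1ra-/- and control fish, genes ordered by log2 difference from control. In the upper 19 genes all 4 mutant points lie right of both control points, and in the lower 5 they lie left of both.

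On the log2 scale of signal plus 1, the largest difference among the 19 was that of kcnk18 (ENSDARG00000057049), which encodes a potassium channel of the leak type. Its signal was 131 and 512 in compound mutants and 20.0 and 26.5 in csf1ra-/-, against 0.136 and 0.988 in control. The controls held 1 and 8 reads of this gene and the mutant libraries 169 to 5562, with no overlap. The log2 difference was 5.72 ± 0.69 (SE, adjusted p = 0.0167, limma). The order depends on that scale: in the authors' deposited table the log2 fold change was 7.20 for kcnk18 and 10.63 for ccl34b.8, which had no control read and whose fold is bounded only from below. It was the only one of 53 potassium channel genes tested, accessory subunits included, to pass. Of the other members, kcnh6a and kcnq5b were above both controls in every mutant library and 14 (26.4%) were below. At the low median level of this list 22.0% of genes were below. The list median was -0.60 on the log2 scale, against -0.65 for genes of that level and -0.10 over all genes.

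Several abundant rises were in secreted or lipid-binding proteins. Ependymin-like 1, epdl1 (ENSDARG00000076386), of a family of secreted glycoproteins first known from brain fluid, had a signal of 1266 and 1914 in compound mutants and 524 and 425 in csf1ra-/-, against 27.7 and 35.4 in control. All 4 mutant values were far above both controls, the means differed 32.7-fold, and the log2 difference of 4.73 ± 0.42 had the smallest adjusted p of any rise (0.00844, limma). The surfactant protein B genes sftpbb (ENSDARG00000067566) and sftpba (ENSDARG00000094708) encode saposin-like proteins, of the kind that spread lipid films in the mammalian lung and sit in lysosome-related organelles. The signal of sftpbb was 558 and 687 in compound mutants and 252 and 329 in csf1ra-/-, against 30.2 and 8.03 in control. That of sftpba was 192 and 261 and 132 and 291, against 5.85 and 10.0. Neither gene overlapped between mutants and control; the means differed 23.9-fold for sftpbb and 27.6-fold for sftpba, with log2 differences of 4.66 ± 0.54 and 4.600 ± 0.50 (adjusted p = 0.0151 and 0.0128, limma). The paralogs could share reads, since the counting rule is not given in the sources used here.

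A gene listed as si:dkey-5n18.1, and named c1ql1 in the reference names, encodes a secreted protein with a C1q domain. It had 127 and 249 in compound mutants and 219 and 120.0 in csf1ra-/-, against 5.85 and 9.88 in control. The mutant groups interleaved, well above both controls, with a log2 difference of 4.31 ± 0.51 (adjusted p = 0.0167, limma). BX957297.1, whose second name in the authors' table is cd59, a membrane inhibitor of the complement attack complex, had 1250.0 and 2244 in compound mutants and 144 and 171 in csf1ra-/-, against 38.4 and 73.6 in control. This gene had the narrowest margin of the 19, 0.96 log2 units between its lowest mutant and highest control library, and a log2 difference of 3.25 ± 0.46 (adjusted p = 0.0343, limma). The symbol cd59 was also sought as an oligodendrocyte marker, but the list did not take up this gene because the table gives BX957297.1 as its symbol. The oligodendrocyte list's summed signal was likewise highest in compound mutants, at 2912 and 4645, with 561 and 624 in csf1ra-/-, against 411 and 565 in control, and its part in this rise was not tested.

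Among the rises were the immune signalling genes myd88 and ccl34b.8 and the granulin gene grn1. The adaptor myd88 (ENSDARG00000010169), which carries signals from Toll-like and interleukin 1 receptors, had 121 and 182 in compound mutants and 52.3 and 47.7 in csf1ra-/-, against 8.30 and 8.15 in control. Its controls were nearly equal, the csf1ra-/- libraries stood above them and the compound mutants were higher again, with a log2 difference of 3.24 ± 0.48 (adjusted p = 0.0408, limma). Granulin 1, grn1 (ENSDARG00000089362), encodes a short member of the progranulin family of secreted and lysosomal growth regulators. It had 373 and 659 in compound mutants and 152 and 107 in csf1ra-/-, against 31.1 and 25.6 in control, a log2 difference of 3.11 ± 0.45 (adjusted p = 0.0343, limma). Its paralog grn2 had 90.1 and 164 and 30.6 and 19.3, against 7.62 and 12.1, and was held by every mutant library without passing (log2 difference 2.39 ± 0.55, adjusted p = 0.0989, limma).

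The chemokine ccl34b.8 (ENSDARG00000093098), a secreted attractant of leukocytes, had no read in either control. It had 300 and 446 reads in compound mutants and 137 and 89 in csf1ra-/-, or signals of 24.3 and 41.1 and 16.02 and 14.0. Against a floor of 3 reads over both controls, its pooled reads per pooled effective size were at least 131-fold higher in the mutants. The fitted adjusted p was 0.0476 (limma), the closest to the threshold of the 24. Near-identical copies in this cluster could split reads. Its cluster neighbour in name, ccl34b.1, a marker of zebrafish microglia, ran the other way: it had 2573 and 1748 in compound mutants and 4776 and 1823 in csf1ra-/-, against 5623 and 9244 in control, lower in every mutant library but not past the test (log2 difference -1.53 ± 0.50, adjusted p = 0.149, limma).

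Among genes of metabolism, vesicles and RNA, glulb (ENSDARG00000100003), a glutamine synthetase, had 286 and 315 in compound mutants and 31.1 and 31.4 in csf1ra-/-, against 3.54 and 8.64 in control. The groups formed 3 separate levels, and the difference of both mutant groups from control was 3.90 ± 0.51 (adjusted p = 0.0298, limma). Synaptogyrin 1b, syngr1b, a membrane protein of small secretory vesicles, had 132 and 159 in compound mutants and 77.4 and 244 in csf1ra-/-, against 7.89 and 6.79 in control, a log2 difference of 4.096 ± 0.55 (adjusted p = 0.0325, limma). The RNA-binding protein gene rbm38 had 104 and 62.6 and 90.7 and 181, against 7.89 and 6.30, a log2 difference of 3.67 ± 0.52 (adjusted p = 0.0343, limma). In both of these genes the mutant groups overlapped each other while lying clear of the controls. The adhesion molecule gene hepacam2, of the immunoglobulin superfamily, had 570.2 and 979 and 169 and 130.0, against 40.3 and 41.6, and its log2 difference of 2.99 ± 0.43 was the smallest of the 19 (adjusted p = 0.0343, limma).

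The other rises carry clone-style names and no function is given for them. Their log2 differences ran from 3.31 for ENSDARG00000101360 to 5.00 for si:dkey-286j15.3, with si:dkeyp-117b11.1, si:dkey-265j8.1, si:ch211-226m16.2 and si:dkey-200l5.4 between. The steadiest of them within groups was si:dkey-286j15.3, with 116 and 111 in compound mutants and 36.8 and 33.6 in csf1ra-/-, against 0.816 and 1.23 in control.

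All 5 genes that fell did so to few or no reads in at least 1 mutant group. The gene CU929449.2 (ENSDARG00000102817), for which the files give no function, had 0.0809 and 0.276 in compound mutants and no read in csf1ra-/-, against 136 and 303 in control. With si:dkey-18p12.4 (ENSDARG00000079703), which had no read in any mutant library against 584 and 1096 in control, it is almost a presence and absence difference between mutant and control libraries. At a floor of 3 reads over the mutant libraries, pooled reads of si:dkey-18p12.4 per pooled effective size were at least 1383-fold lower there. The log2 differences were -7.56 ± 0.72 (adjusted p = 0.00879) and -6.71 ± 0.71 (adjusted p = 0.0128, limma).

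The mutant groups were less alike in the other falls. zgc:171695 had no read in csf1ra-/- and 1.29 and 5.62 in compound mutants, against 125 and 196 in control. The SH3-domain adaptor gene sh3d19 (ENSDARG00000088202), whose mammalian product binds membrane proteases, had no read in compound mutants and 2.69 and 0.157 in csf1ra-/-, against 48.4 and 89.5 in control. Neuroplastin a, nptna (ENSDARG00000103002), an adhesion molecule of the immunoglobulin superfamily known from synapses, had 0.0809 and 0.552 in compound mutants and 37.4 and 75.1 in csf1ra-/-, against 114 and 386 in control. Its csf1ra-/- values lay between the other groups, and its nearest mutant and control libraries were 0.60 log2 units apart, the narrowest margin of the 5. The log2 differences from control were -6.32 ± 0.73, -5.54 ± 0.78 and -4.66 ± 0.66 (adjusted p = 0.0151, 0.0343 and 0.0343, limma).

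Among genes lower in the mutants that did not pass, those named here by the width of their gap, clone-named genes aside, had few or no reads in the mutants. The tripartite motif gene ftr01 had no read in any mutant library and 66 in each control (log2 difference -3.26 ± 0.58, adjusted p = 0.0656, limma). The calpain protease gene capn8 had 0 and 1.84 in compound mutants and 1.05 and 0.157 in csf1ra-/-, against 29.2 and 54.0 in control (adjusted p = 0.0576, limma). ZFOS-741A10.4, or115-7, DEPDC1B, slc4a1b, fam213ab and tnc, named by the same rule, had adjusted p of 0.0524 to 0.0853. In all, 19 genes (0.0891% of those tested) had no read in any mutant library and at least 20 in both controls, and 8 (0.0375%) had none in either control and at least 20 in every mutant library. Of these 8, ccl34b.8 passed and the others, ccdc84, tefm and NUDT16 among them, did not.

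Within the mutants, compound and csf1ra-/- libraries were compared directly, a contrast that uses no control library. Only 2 genes passed it over all genes, both lower in compound mutants (0.00938%) and neither among the 24. They were ENSDARG00000103716 and ENSDARG00000104635, clone-named genes that had no read in either compound library and 646 to 4079 reads in the csf1ra-/- libraries. Of the 19 rises, the compound mean was above the csf1ra-/- mean in 18, both compound libraries were above both csf1ra-/- libraries in 14, and 11 were higher in compound mutants at an unadjusted p under 0.05. Over all genes tested the shares were 43.9%, 20.0% and 6.44%, and over the 5336 genes with a mean log2 signal of 4 or more, a level that 18 of the 19 reach, they were 63.4%, 35.4% and 10.5%. None of the 19 passed the adjustment in limma. In the authors' deposited table this comparison had false discovery rates of 0.000108 for glulb and BX957297.1, 0.000390 for kcnk18, 0.00518 for hepacam2 and 0.0196 for grn1. The rates were also under 0.05 for epdl1, si:dkey-200l5.4 and si:dkeyp-117b11.1, and above 0.05 for the other rises. The difference between the mutant groups was 3.44 ± 0.79 for kcnk18, 3.41 ± 0.53 for BX957297.1, 3.23 ± 0.59 for glulb, 2.33 ± 0.50 for hepacam2 and 1.95 ± 0.52 for grn1 on the log2 scale. It was near 0 for syngr1b at 0.08 ± 0.63, si:dkey-5n18.1 at 0.13 ± 0.59 and sftpba at 0.19 ± 0.58, and below 0 for rbm38 at -0.66 ± 0.60. Among the falls, nptna was lower in compound mutants by a wide margin (-5.38 ± 0.76, adjusted p = 0.101, limma), and zgc:171695 ran the other way at 1.96 ± 0.85. Their false discovery rates in the deposited table were 8.9e-11 and 0.000134. That of sh3d19 was 0.00696 and that of CU929449.2 was 0.224, and si:dkey-18p12.4 had no read in either mutant group. A p that misses the threshold does not show that the mutant groups are alike.

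**Figure D2:**
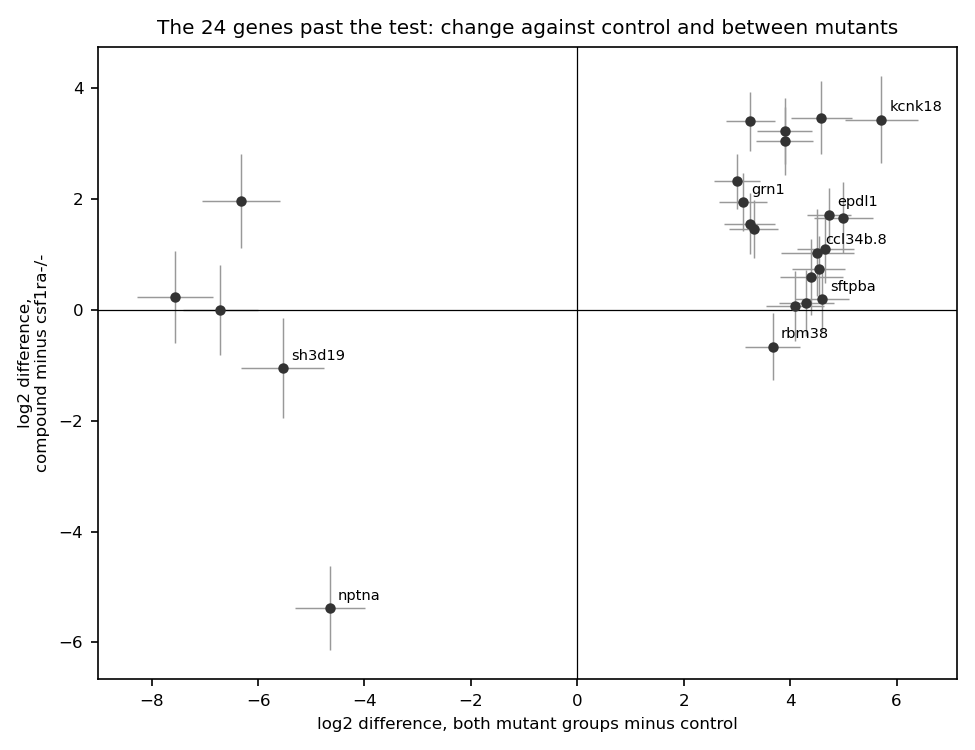
For each of the 24 genes that passed, the log2 difference of both mutant groups minus control (horizontal axis) against the log2 difference of compound minus csf1ra-/- (vertical axis), with bars of 1 SE of the limma fit; lines mark 0. Of the 19 genes on the right, 18 lie above the horizontal line, with rbm38 the exception, and nptna lies lowest at the left.

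Beyond the genes that passed, 2318 genes (10.9% of those tested) were above both controls in every mutant library and 2909 (13.6%) were below. Apart by at least 1 log2 unit were 484 (2.27%) and 731 (3.43%). The level of a gene went along with its direction. The genes above had a median mutant signal of 32.9, and 17.6% of them were under 10, whereas the genes below had a median control signal of 5.66, and 72.5% of them were under 10. Among genes with a mean log2 signal under 2, 2.27% were above and 22.0% below. Among those between 6 and 8 the shares were 34.3% and 2.78%, and from 8 up they were 28.4% and 2.01%. This mean includes the mutant libraries, so a rise or fall in them also moves the level of a gene. The mutant libraries had more reads, fewer genes with a read and a smaller effective size per read than control library 1, and the part of these differences in the pattern was not tested.

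**Figure D3:**
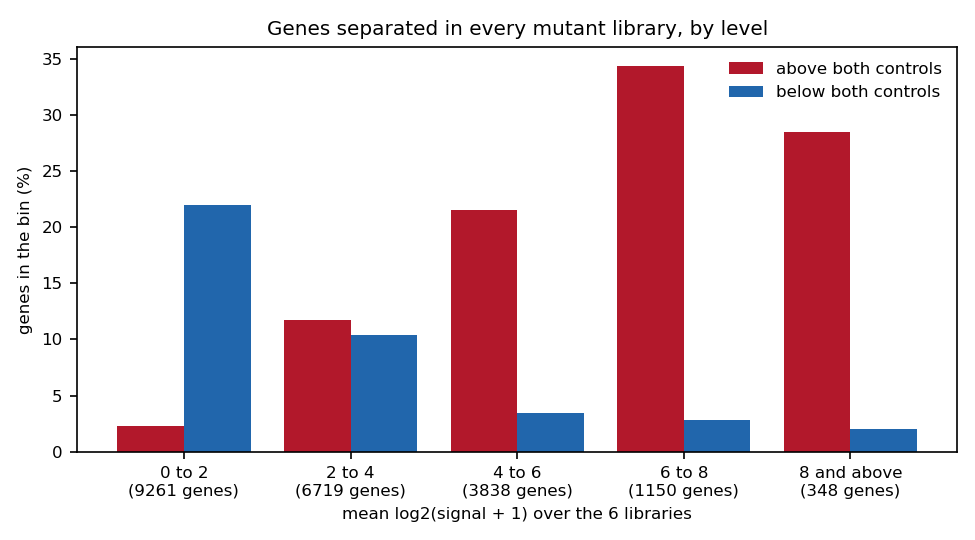
Share of genes (%) that every mutant library put above (red) or below (blue) both controls, by mean log2 of signal plus 1 over the 6 libraries. Below a mean of 2 the blue bar (22.0%) exceeds the red (2.27%), and from 4 up the red bars exceed the blue.

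Gene lists were therefore read beside all genes and beside genes of their own level. That level is a mean over all 6 libraries, mutants included, and a list takes the level of its median member. Members lie at other levels too, so the shares at a level are a rough guide and not a matched comparison. Of 49 chemokine and chemokine receptor genes tested, 21 (42.9%) were above both controls in every mutant library and 3 (6.12%) below, and their median log2 difference was 1.33. Their median level was a mean log2 signal of 2.82, a range in which 11.7% of genes were above. Chemokines direct the movement of leukocytes through receptors on their surface. The ligands ccl35.2 and cxcl11.7 came next after ccl34b.8. The signal of ccl35.2 was 548 and 731 in compound mutants and 279 and 245 in csf1ra-/-, against 78.5 and 56.6 in control (log2 difference 2.59 ± 0.41, adjusted p = 0.0515, limma). That of cxcl11.7 was 425 and 656 and 229 and 178, against 76.4 and 50.5 (adjusted p = 0.0707, limma). Both were ordered compound, csf1ra-/-, control with no overlap, and neither passed. The other members held higher were the cxcl11 ligands cxcl11.3, cxcl11.5 and cxcl11.6, several ccl39 ligands, ccl19a.1, ccl33.3, ccl35.1 and cxcl20, and the receptors cxcr3.1, cxcr4b, ccr9a, ccr10 and xcr1a.1. Only ccl34b.8 passed the test.

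**Figure D4:**
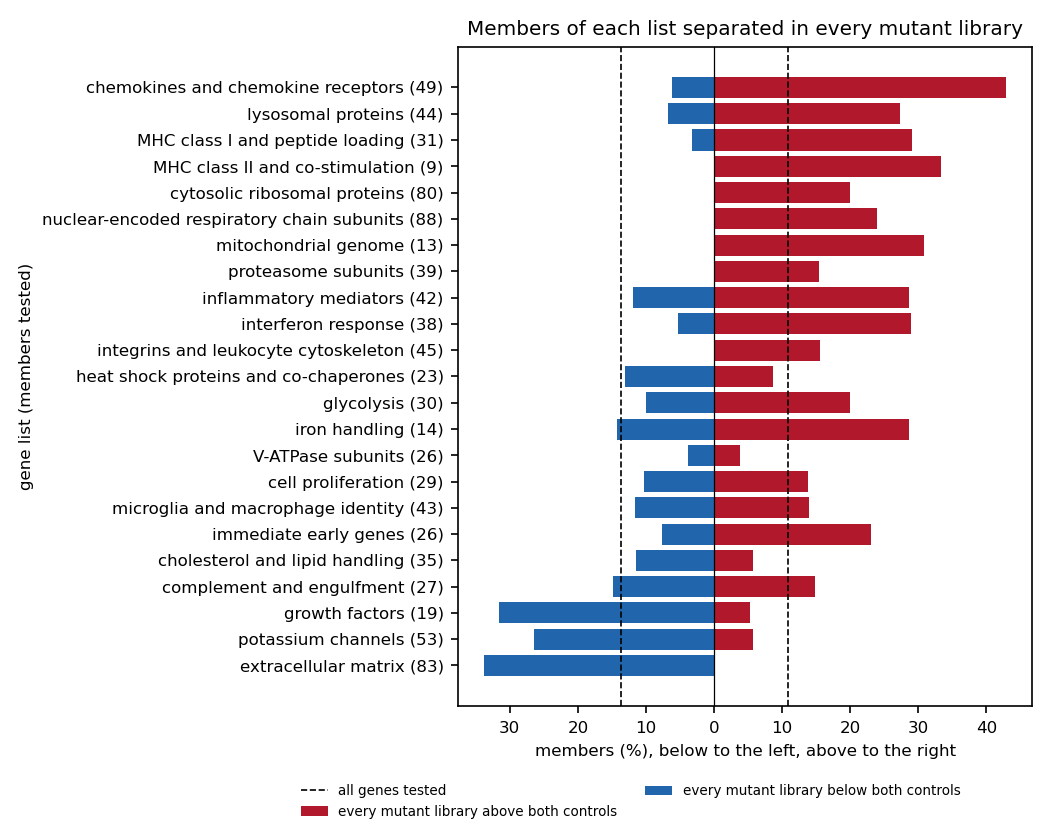
Share of the tested members of each gene list (%) that every mutant library put above both controls (red, to the right) or below both (blue, to the left), with the number tested in brackets and lists ordered by median log2 difference. Dashed lines mark the 10.9% and 13.6% of all genes tested; chemokines reach 42.9% on the right and extracellular matrix 33.7% on the left.

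Lysosomal proteins, which degrade engulfed material, had 12 of 44 members (27.3%) above both controls in every mutant library and 3 (6.82%) below, with a median of 0.98. Their median level was a mean log2 signal of 6.66, where 34.3% of all genes were above and 2.78% below. The share above is thus not set apart from genes of like level. grn1 was the member that passed. The cathepsin protease gene ctss2.1 had 468 and 664 in compound mutants and 166 and 171 in csf1ra-/-, against 64.1 and 112 in control (adjusted p = 0.0989, limma). The summed signal of the list was 14496 and 15652 in compound mutants and 8863 and 7376 in csf1ra-/-, against 4681 and 8913 in control, so the sums of the csf1ra-/- libraries overlapped the controls where the compound sums did not. V-ATPase subunits, which acidify lysosomes, showed 1 of 26 (3.85%) held in each direction, at a level where 21.5% of genes were above and 3.49% below, and a median of 0.23.

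Interferon response genes had 11 of 38 members (28.9%) above and 2 below, a median of 0.69 and none past limma or edgeR. At an unadjusted p under 0.05 there were 7 higher and 0 lower, and 5 were higher by DESeq2. Of all 21316 genes tested, 9.21% were higher and 10.9% lower at that unadjusted p, and DESeq2 called 686 higher. Their median level was 3.44, where 11.7% of genes were above. The transcription factor stat1b, which carries interferon signals to the nucleus, had 259 and 471 in compound mutants and 108 and 78.9 in csf1ra-/-, against 28.8 and 26.3 in control (log2 difference 2.66 ± 0.45, adjusted p = 0.0576, limma). The double-stranded RNA sensor tlr3 had 181 and 127 and 131 and 214, against 22.6 and 26.9 (adjusted p = 0.0576, limma), with the mutant groups overlapping. The feedback inhibitor socs1a had 227 and 96.6 and 50.7 and 30.0, against 14.6 and 5.93 (adjusted p = 0.0894, limma).

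Inflammatory mediators had 12 of 42 members (28.6%) above, myd88 among them, and 5 (11.9%) below. At their median level of 4.32, 21.5% of genes were above and 3.49% below. Next to myd88 were irak3, an inhibitor in the same pathway, with 193 and 290.1 in compound mutants and 42.7 and 53.5 in csf1ra-/-, against 23.0 and 29.4 in control, and rel, an NF-kB subunit, with 309.5 and 200.2 and 67.8 and 117, against 44.7 and 51.0. Neither passed (adjusted p = 0.0981 and 0.122, limma). The Toll-like receptor genes tlr7, tlr8b and tlr9 and the adaptor tirap were held higher, while tlr18, ripk2, caspb, tnfrsf1b and irg1 were held lower.

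MHC class I and peptide loading genes, which display peptides to T cells, had 9 of 31 members (29.0%) above and 1 below, at a median level of 5.67 where 21.5% of genes were above. None passed limma. The edgeR test called 1 in each direction and DESeq2 7 higher and 1 lower, and 11 higher and 1 lower had an unadjusted p under 0.05. Over all 21316 genes tested, edgeR called 35 higher and 39 lower, and DESeq2 686 and 992. At that unadjusted p 9.21% of them were higher and 10.9% lower. The 2 members with the smallest p went opposite ways. The signal of mhc1uka was 126 and 217 in compound mutants and 17.7 and 14.9 in csf1ra-/-, against 4.62 and 3.83 in control (log2 difference 3.36 ± 0.55, adjusted p = 0.0524, limma). The signal of mhc1uba was 31.3 and 51.0 and 5.85 and 289.5, against 1532 and 2071 (log2 difference -5.38 ± 1.13, adjusted p = 0.0925, limma). Zebrafish carry different sets of these genes on different haplotypes and near copies can share reads, and the haplotype of each library is not given. The light chain genes b2m and b2ml and the immunoproteasome subunits psmb9a and psmb10 were among the 9 held higher. Of 9 MHC class II and co-stimulation genes 3 (33.3%), cd83, rfxank and ciita, were above, a share close to the 34.3% of genes at their median level of 7.34. The signal of cd83, a surface marker of activated antigen-presenting cells, was 70.9 and 77.5 in compound mutants and 29.8 and 15.5 in csf1ra-/-, against 6.94 and 0.370 in control (adjusted p = 0.0925, limma).

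Integrin and leukocyte cytoskeleton genes had 7 of 45 members (15.6%) above and none below, at a median level of 6.17 where 34.3% of genes were above. The smallest p was that of the actin-capping gene capgb, at 129 and 150.2 in compound mutants and 101 and 125 in csf1ra-/-, against 19.6 and 25.7 in control (log2 difference 2.43 ± 0.44, adjusted p = 0.0656, limma). The mutant groups of capgb overlapped each other, clear of both controls. Microglia and macrophage identity genes showed no common direction, with 6 of 43 above (14.0%), 5 below (11.6%) and a median of -0.04. At their median level of 7.47, 34.3% of all genes were above and 2.78% below, with a median of 0.77, so fewer of the identity genes were above and more below than of genes of like level; this was not tested. Those above were hcst, aif1l, siglec15l, irf8, spi1b and p2ry13, and those below were slco2b1, apoea, ccl34b.1, lgals9l1 and havcr1. The signalling adaptor gene hcst had 72.2 and 181 in compound mutants and 41.6 and 67.0 in csf1ra-/-, against 4.49 and 11.5 in control (adjusted p = 0.0719, limma), and the myeloid transcription factor gene irf8 had 1156 and 1344 and 783 and 1308, against 354 and 544 (adjusted p = 0.143, limma). Complement and engulfment genes were split evenly, 4 above and 4 below of 27 (14.8% each), at a level where 11.7% of genes were above and 10.4% below. The properdin gene cfp, whose product stabilises complement activation, was the member with the smallest p, at 109 and 102 in compound mutants and 165 and 101 in csf1ra-/-, against 349 and 445 in control (log2 difference -1.74 ± 0.42, adjusted p = 0.103, limma).

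Ribosomal, respiratory and proteasome genes lay above control in most members in the mean of both mutant groups, and none of their members passed limma or edgeR. At an unadjusted p under 0.05 there were 12, 22 and 8 of them, all higher, and DESeq2 called 1, 5 and 0. Over all 21316 genes tested 9.21% were higher at that unadjusted p, and DESeq2 called 686 higher. Of 80 cytosolic ribosomal protein genes, 79 had a log2 difference above 0, with a median of 0.80, and 16 (20.0%) were above both controls in every mutant library. At their median level, a mean log2 signal of 9.61, 28.4% of all genes were above, so this share is not set apart from genes of like level. The summed ribosomal signal was 71300 and 72945 in compound mutants and 83412 and 164742 in csf1ra-/-, against 31826 and 71767 in control. The sum of compound library 1 was thus below that of control library 2. Of 88 nuclear-encoded respiratory chain genes, assembly factors included, 86 were above 0 and 21 (23.9%) were held, at a median level where 21.5% of genes were above. The smallest p was that of cox7a1, a cytochrome oxidase subunit, at 28.5 and 37.6 in compound mutants and 35.9 and 30.4 in csf1ra-/-, against 2.58 and 1.61 in control (log2 difference 3.47 ± 0.61, adjusted p = 0.0646, limma). The mitochondrial genome had 4 of 13 (30.8%) held higher, where 28.4% of genes of its level were, and proteasome subunits 6 of 39 (15.4%), where 21.5% were. Their medians were 0.80 and 0.79, and that of the respiratory list was 0.80. Of the 39 proteasome members 34 were above 0. For csf1ra-/- alone against control, the ribosomal, respiratory and proteasome medians were 1.25, 0.71 and 0.38. For compound mutants alone they were 0.36, 0.89 and 1.23. Whether these medians differ between the mutant groups was not tested. Of all 21316 genes tested, 9985 had a difference above 0. All genes at the level of the ribosomal and mitochondrial genome lists had a median of 0.79. At the level of the respiratory and proteasome lists it was 0.55. Scaled to total reads, the ribosomal, respiratory, mitochondrial genome and proteasome medians were 0.18, 0.23, 0.17 and 0.27. Glycolysis genes split by paralog: gpia and aldoaa were held higher and gpib and aldoab lower, among 6 above (20.0%) and 3 below (10.0%) of 30, at a level where 11.7% and 10.4% of genes were.

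Extracellular matrix genes were the list with the most members held lower, 28 of 83 (33.7%), with none held higher and a median of -1.38. None passed limma or edgeR, while 30 were lower and 1 higher at an unadjusted p under 0.05 and DESeq2 called 27 lower. Of all 21316 genes tested, 10.9% were lower at that unadjusted p and DESeq2 called 992 lower. Their median level was a mean log2 signal of 1.72, where 22.0% of genes were below. The smallest p values were those of tnc, encoding tenascin C, and hspg2, encoding the basement membrane proteoglycan perlecan. The signal of tnc was 0.0809 and 1.84 in compound mutants and 2.57 and 4.08 in csf1ra-/-, against 35.5 and 51.0 in control (log2 difference -3.995 ± 0.74, adjusted p = 0.0721, limma). For hspg2 the log2 difference was -3.72 ± 0.78 (adjusted p = 0.0925, limma), with all 4 mutant libraries below both controls. The others were collagens, laminins, both fibronectin genes, emilin1a and postna, at a few units of signal in control. Compound libraries had no read for 26 and 28 of the 85 matrix genes in the table, csf1ra-/- libraries for 1 and 4, and controls for 0 and 1. Of all 21860 genes, 18383 and 18047 had a read in compound libraries, 20971 and 20119 in csf1ra-/- and 21452 and 20723 in control.

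Growth factor genes had 6 of 19 members (31.6%) below both controls in every mutant library and 1, hbegfa, above, at a median level of 1.77 where 22.0% of genes were below. The activin subunit gene inhbb had 0 and 0.829 in compound mutants and 9.12 and 0.157 in csf1ra-/-, against 56.0 and 81.9 in control (log2 difference -5.00 ± 0.93, adjusted p = 0.0729, limma). The platelet-derived growth factor gene pdgfba, at a higher level, had 75.8 and 38.4 and 217 and 106, against 353 and 531 (adjusted p = 0.0948, limma). In both genes the controls were the highest libraries, with no overlap. The others held lower were hbegfb, bdnf, igf2a and inhbaa. Iron handling had 4 of 14 (28.6%) above and 2 below, at a level where 11.7% of genes were above and 10.4% below, led by the ferritin heavy chain gene fth1a at 534 and 649.9 in compound mutants and 424 and 946 in csf1ra-/-, against 101 and 201 in control (adjusted p = 0.0989, limma). Of 26 immediate early genes 6 (23.1%) were above and 2 (7.69%) below, and of 29 proliferation genes 4 (13.8%) were above and 3 (10.3%) below. At the median level of each of these lists 11.7% of genes were above and 10.4% below.

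Markers of other brain and blood cells moved with part of these results. Oligodendrocytes make myelin, and the summed signal of their markers was highest in compound mutants, as given with BX957297.1. Of the 17 members of the list 3 (17.6%) were above both controls in every mutant library, tspan2a, mbpb and zwi, and none below, at a median level of 3.04 where 11.7% of genes were above and 10.4% below; olig2 had no read in 1 csf1ra-/- library. The radial glia list, to which glulb belongs, had 3 of 24 (12.5%) above and 2 below, at a level where 11.7% of genes were above and 10.4% below. Its summed signals were 2573 and 2229.8 in compound mutants and 1186 and 1020.2 in csf1ra-/-, against 984 and 2863 in control. Its defining marker gfap stood at 0.162 and 5.25 in compound mutants and 4.79 and 8.31 in csf1ra-/-, against 0.952 and 3.58 in control, and glula, the paralog of glulb, at 1566 and 1144 and 789 and 603, against 714 and 2392. The sums of mutant and control libraries overlapped. At a few units of signal, gfap was above both controls in every mutant library except compound library 1. The part of radial glia in the rise of glulb was not tested.

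B lymphocyte markers had 5 of 13 (38.5%) above and none below, at a median level of 3.80 where 11.7% of genes were above. None passed limma or edgeR, and DESeq2 called 3 higher, against 686 of all 21316 genes tested. Scaled to total reads, 2 of the 13 were above and 0 below, where 5.34% of all genes tested were above. The summed signals were 445 and 729 in compound mutants and 389 and 969.8 in csf1ra-/-, against 203 and 314 in control. The member with the smallest p was CD37, at 39.4 and 42.4 and 17.8 and 19.9, against 1.22 and 4.32. Neutrophil markers had 2 of 9 (22.2%) above, at a level where 11.7% of genes were above. Their sums were 397 and 582 in compound mutants and 385 and 298 in csf1ra-/-, against 128 and 353 in control. Of the 9 neutrophil members, 5 had a log2 difference above 0 and 4 below, with a median of 0.69, and none passed limma or edgeR. In the authors' deposited table, the log2 fold change of both mutant groups was 1.73 for srgn, 2.74 for npsn and -1.21 for csf3r. Their false discovery rates were 0.0247, 0.0848 and 0.241. The neutrophil peroxidase gene mpx had no read in compound mutants and 2.57 and 4.70 in csf1ra-/-, against 9.93 and 0.247 in control. Epithelium and metaphocyte markers had sums of 223 and 177 and 367 and 386, against 119.6 and 116, with 2 of 16 members, icn and krt8, above in all mutant libraries. Neuron, T and natural killer cell, endothelium, red cell and muscle lists had 3, 3, 3, 2 and 2 members below and 0, 0, 0, 0 and 1 above, of 22, 15, 16, 6 and 10 tested. Among genes of the level of the epithelium, neuron, T cell, endothelium and red cell lists 2.27% were above and 22.0% below, and of the muscle list 11.7% and 10.4%. The mural cell marker PDGFRB had 0 and 0.184 in compound mutants and 0.117 and 0.157 in csf1ra-/-, against 5.85 and 2.59 in control. PDGFRB lies 1 place from csf1ra in the order of genes. Of the 16 endothelium and mural cell members, 6 had a log2 difference above 0 and 10 below. The part of these cells in the immune, glial and matrix results was not tested.

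**Figure D5:**
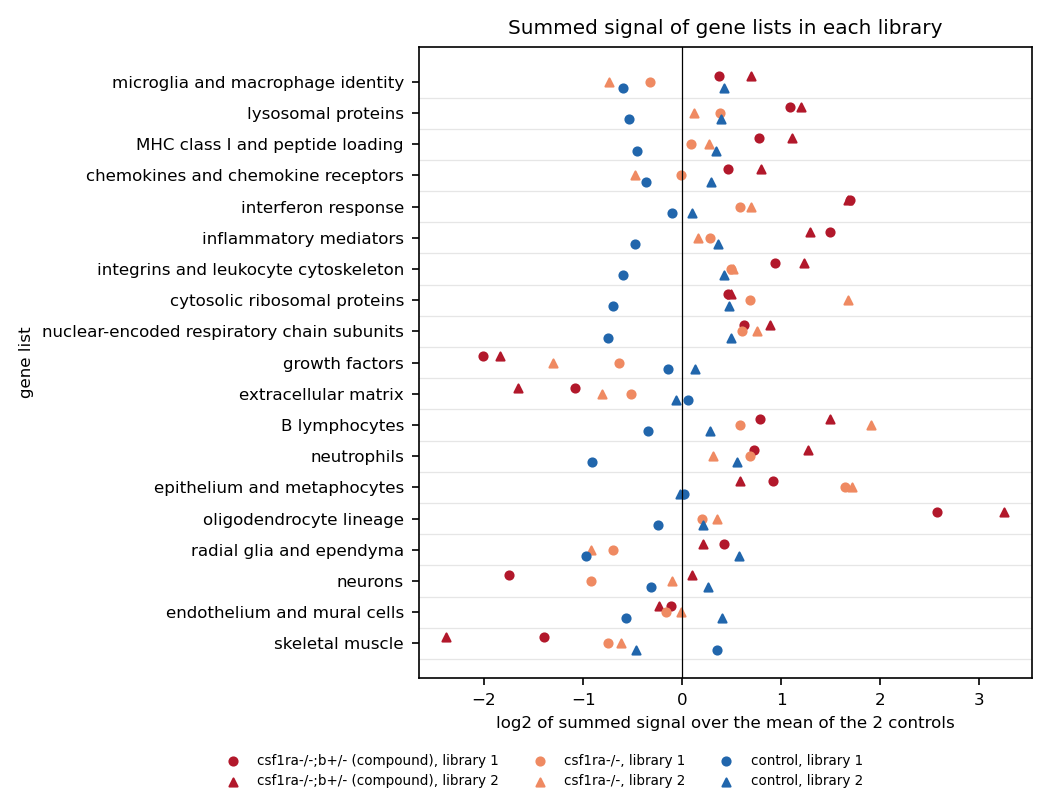
Log2 of the summed signal of each gene list in each library, relative to the mean of the 2 control sums (0), for csf1ra-/-;b+/-, csf1ra-/- and control libraries (circle, library 1; triangle, library 2). The oligodendrocyte list lies farthest right in compound mutants (sums of 2912 and 4645), and growth factor and matrix sums lie left of both controls in all 4 mutant libraries.

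Scaling changed the balance of directions. When reads were scaled to library totals instead, the median over all genes shifted by -0.46 on the log2 scale, 5.34% of genes were above both controls in every mutant library and 20.6% below, and 46.6% of the calls were higher in place of 79.2%. Relative to that median, every list but microglia and macrophage identity kept the side it had. Chemokines then had 13 members above and 6 below, lysosomal proteins 7 and 5, and extracellular matrix 0 and 37. Inflammatory mediators had 5 above and 6 below in place of 12 and 5, and V-ATPase subunits 0 and 6 in place of 1 and 1. Interferon response genes had 5 and 2 in place of 11 and 2, and respiratory chain genes 10 and 2 in place of 21 and 0. The medians of the V-ATPase, proliferation and radial glia lists went from above 0 to -0.36, -0.26 and -0.11. All 24 genes kept their direction and passed under that scaling. With either control library or either csf1ra-/- library left out, no gene passed limma at 0.05, the 24 genes kept their direction, and their adjusted p lay between 0.128 and 0.285.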

How the data were processed

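RNA of mpeg1-GFP sorted brain cells was measured in 6 libraries, 2 each of csf1ra-/-;b+/-, csf1ra-/- and control. GRCz10, HISAT2 and edgeR are listed in the submitters' processing notes; their versions, the strand handling and the counting rule are not given in these sources. The authors deposited 1 table of 21860 genes, whose signal columns are headed CPM, per the file headers; from the values they are reads over an effective size of each library. All values (100%) were whole multiples of 1 read within 0.001, so reads could be recovered. The authors' deposited log2 fold changes and false discovery rates (p-value columns) were used as described; another 15 columns were not used.

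Genes that reached a signal of 1 in 2 or more libraries (21316) were tested with limma 3.58.1 in R 4.3.3, with trend and robust estimation, on log2 of signal plus 1, with 3 group means. Fold changes on this scale understate low genes. The contrast was the mean of both mutant groups minus control; p-values were Benjamini-Hochberg adjusted over all genes tested. A single-gene exact permutation test of 4 against 2 libraries cannot go below p = 0.0667 and was not used. Alternatives were edgeR 4.0.16, DESeq2 1.42.0, other scaling, filters and pseudocounts, the replicate number as a block, pooled mutants and each library left out. Folds against 0 reads pool the reads and the effective sizes of each side and use a floor of 3 reads over the side without reads. Floors cover counting error only. The scripts were tested on simulated data.

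The text names the CSF1 receptors and ligands; up to 15 genes per direction that passed, were held by every mutant library, averaged at least 20 reads and had a symbol not of clone style, ordered by gap and, where fewer than 10 passed, filled to 10 from the next in gap at an unadjusted p under 0.01; and the 3 members of each list with the smallest p. The clone-named genes among the 24, the members listed without values, and mpeg1.1, apoeb, ccl34b.1, irf8, gfap, glula and mpx were chosen after their values were seen. The comparison, the gene lists and the choice of members were made with earlier results of these data known. The matrix list was narrowed after its members were seen, to leave out ceramide transporter genes whose symbols begin like those of collagens. Of the symbols sought, csf1a has no gene in the table. For compound mutants a second label names both receptors as mutant; the genotype label, with csf1rb heterozygous, was used.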

Additional observations from a re-analysis of the deposited data

Results flagged for a closer look

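The values of the myelin protein zero gene mpz lay above control in compound mutants and below control in csf1ra-/-. Its signal was 573 and 749 in compound mutants and 24.8 and 40.0 in csf1ra-/-, against 42.7 and 72.0 in control. Both compound libraries were above both controls and both csf1ra-/- libraries below them, and compound minus csf1ra-/- was 4.34 on the log2 scale (adjusted p = 0.0519, limma, over all genes). The difference did not pass the adjustment in limma, and its false discovery rate in the authors' deposited table was 2.4e-08. There csf1ra-/- minus control was -0.83 at a false discovery rate of 0.663, so a fall in csf1ra-/- was not called. The gene mpz was singled out of many by the opposite sides of its groups, so it was found by its values. The mean of both mutant groups does not show this pattern. It is 1 of the genes in the summed signal of the oligodendrocyte list given in the report.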

How the results depend on the processing

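The 24 genes kept their direction in all 17 alternative settings, and how many other genes passed depended on the setting. Genes higher and lower numbered 19 and 5 as reported, 686 and 992 with DESeq2, 203 and 37 with at least 50 reads in 2 libraries, 35 and 39 with edgeR and 33 and 10 without robust estimation. They numbered 19 and 9 with median-ratio scaling, 19 and 8 with a pseudocount of 4, and 27 and 31 with scaling to total reads. Held by every mutant library were 618 and 708 (DESeq2), 202 and 34 (at least 50 reads), 35 and 34 (edgeR), 33 and 9 (not robust), 19 and 8 (median-ratio and pseudocount of 4) and 27 and 29 (total reads). Genes past the compound against csf1ra-/- test, 2 as reported, numbered 1379 with DESeq2, 48 with at least 50 reads, 18 with edgeR, 5 with median-ratio scaling, 4 with a pseudocount of 4, 39 with total reads and 5 without robust estimation. With at least 50 reads, 12620 genes were tested in place of 21316. The causes of these differences in counts were not tested. The share of calls that were higher was 79.2% as reported, 40.9% with DESeq2, 47.3% with edgeR and 67.9% with median-ratio scaling.

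With the replicate number as a block, 121 genes were higher and 32 lower, 120 and 30 of them held, and 34 passed between the mutant groups. Deviations of same-numbered libraries correlated across genes by 0.0060 to 0.018. A single value over all genes cannot show whether some genes share an effect of the replicate number, so pairing by number was not settled.

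With 1 library left out, genes higher ran from 0 to 66 and genes lower from 0 to 26. Those held ran from 0 to 66 and from 0 to 23, and those between the mutant groups from 0 to 8. The highest counts came without compound library 1, and without compound library 2 there were 36 and 16. All 0 counts came without a control or csf1ra-/- library, where 1167 to 2141 genes were higher and 1458 to 2397 lower at an unadjusted p under 0.05 by limma, the tool run there. A lone library is then assumed to vary like the other groups. Of the 24, 16 passed with all mutants pooled as 1 group, 23 without a filter, with a pseudocount of 0.25 or 4 or without compound library 2. The calls thus rest on every control and csf1ra-/- library being present. Libraries of 4241988 to 15011963 reads limit the low-level genes most.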

Other observations

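Cholesterol and lipid handling genes had few members held by every mutant library, 2 of 35 above (hmgcra and fdps, of sterol synthesis) and 4 below (apoa1a, apoea, fabp11a and hmgcrb), with a median log2 difference of -0.32. The fatty acid binding protein gene fabp11a had a signal of 3.32 and 5.80 in compound mutants and 10.1 and 7.21 in csf1ra-/-, against 38.8 and 35.8 in control (adjusted p = 0.112, limma). No member passed limma or edgeR. At an unadjusted p under 0.05, 4 were higher and 5 lower, and DESeq2 called 1 higher and 3 lower. Of all 21316 genes tested, 9.21% were higher and 10.9% lower at that unadjusted p, and DESeq2 called 686 and 992. The HMG-CoA reductase paralogs hmgcra and hmgcrb thus lay on opposite sides of control.

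Heat shock proteins had 2 of 23 members above, hsp90ab1 and dnaja2, and 3 below, HSPA8, hspd1 and hspe1. At the median level of this list and of the lipid list, 11.7% of all genes were above and 10.4% below. The signal of hsp90ab1 was 1971 and 1822 in compound mutants and 1967 and 4578 in csf1ra-/-, against 914 and 1490.0 in control (adjusted p = 0.254, limma). Among immediate early genes, which respond fast to stimuli and to cell handling, klf2b had 24.2 and 33.4 in compound mutants and 24.2 and 11.3 in csf1ra-/-, against 1.09 and 1.98 in control (adjusted p = 0.0925, limma), while npas4a and nr4a1 were held lower. The summed signal of these 26 genes was 2849.6 and 1578 in compound mutants and 3434 and 1135 in csf1ra-/-, against 1973 and 1564 in control, with the groups overlapping.

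In the order of genes in the GRCz12tu annotation, none of the measured genes within 10 places of csf1ra or csf1rb passed the test. Of those, etf1a and PDGFRB near csf1ra and si:dkey-229d11.5 and oatx near csf1rb were held lower by every mutant library. Near csf1rb, sra1 was held higher. Over all genes tested 13.6% were below both controls in every mutant library and 10.9% above. Whether the neighbours differ from these shares was not tested.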
